A study of Mus musculus with 14 samples.

Results

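The genes described here are Tecta, Tectb, Otoa, Otog, Otogl and Ceacam16, the noncollagenous glycoproteins of the tectorial membrane and otoancorin, which anchors that membrane. They were chosen by name, and all 6 were found among the 35976 gene symbols of the count tables. RNA-seq was performed on supporting cells (SCs) sorted for EGFP from cochlear explants of C57BL/6 mice that carry Lfng-EGFP, a bacterial artificial chromosome transgene in which Lfng sequence drives EGFP. Every explant was cultured for 24 hours, either with 2 µM compound E (CompE) or with its vehicle, DMSO. Compound E inhibits γ-secretase, the protease that frees the intracellular part of Notch receptors. Of the 14 libraries, 4 CompE and 4 DMSO were from P0 explants and 3 CompE and 3 DMSO from P6 explants. Libraries with the same replicate number and age came from the same batch of the labels and are called pairs. At P0, pairs 1 and 2 were batches 1 and 2 and pairs 3 and 4 shared batch 3, while the 3 pairs at P6 were batches 4, 5 and 6. No batch held both ages, so age and batch cannot be told apart. Cochleae were pooled before dissociation, so a library stands for several organs and not for one animal.

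The tectorial membrane is the sheet of extracellular matrix that lies over the hair cells of the cochlea and deflects their stereocilia when sound moves the sensory epithelium. It consists of collagen fibrils embedded in a striated sheet that is built from α-tectorin and β-tectorin, and it is secreted around birth by the epithelium beneath it, which includes the greater epithelial ridge and SCs. Otogelin and otogelin-like are large mucin-related glycoproteins of this and the other acellular membranes of the inner ear. CEACAM16 binds α-tectorin and joins the sheet later in development. Otoancorin sits on the surface of the cells to which the membrane attaches, in the cochlea chiefly the interdental cells of the spiral limbus, and is not itself a part of the sheet.

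Between 19415066 and 44430063 reads per library were counted on genes. The treatment was visible in the Notch target genes, whose summed level at P0 was 1069 to 1571 reads per 1000000 counted reads (RPM) with CompE and 3681 to 6240 RPM with DMSO, with 5 of 7 called lower. Calls needed an adjusted p not above 0.01 and a change of 2-fold or more in edgeR's quasi-likelihood test. At P6 the sums were 777 to 1597 RPM and 1724 to 3510 RPM, with 0 of 7 called and all 7 fold changes below 0. The SC marker Sox2 had 352 to 727 RPM at P0 and 96.1 to 281 RPM at P6. The SC markers did not all move this way. Between the ages in DMSO, 6 of the 8 were lower at P6 and 2 were higher, with 2 called lower. The macrophage list summed to at most 5.02 RPM at P0, and at P6 it reached 57.3 RPM in the CompE library and 20.5 RPM in the DMSO library of pair 3.

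Tectb on chromosome 19 and Otoa on chromosome 7 are the members whose levels differed most clearly between treatments, and the 250 bases before their RefSeq starts are shown with those of Tecta and Otog, whose levels overlapped between treatments at both ages. Capitals mark every match on either strand to TGGGAA, the core of the site bound by RBPJ, the DNA-binding partner of Notch, and to CAGNTG, an E-box of the kind bound by basic helix-loop-helix factors such as Atoh1. No match overlapped another. Sequences are from RefSeq on GRCm38.p6, which held promoters of 4 of the 6 genes and none for Otogl or Ceacam16.
Tectb, chr19:55180476-55180725, plus strand: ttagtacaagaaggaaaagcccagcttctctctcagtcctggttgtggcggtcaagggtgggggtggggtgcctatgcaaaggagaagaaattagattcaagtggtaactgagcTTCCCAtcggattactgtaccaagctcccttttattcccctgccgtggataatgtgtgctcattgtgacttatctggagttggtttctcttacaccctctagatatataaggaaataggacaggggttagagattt
Otoa, chr7:121083174-121083423, plus strand: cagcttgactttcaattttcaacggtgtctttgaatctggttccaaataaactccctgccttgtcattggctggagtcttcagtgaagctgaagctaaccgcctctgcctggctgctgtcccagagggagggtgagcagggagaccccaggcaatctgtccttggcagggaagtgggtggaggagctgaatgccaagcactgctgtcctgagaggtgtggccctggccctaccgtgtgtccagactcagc
Tecta, chr9:42399948-42400197, minus strand: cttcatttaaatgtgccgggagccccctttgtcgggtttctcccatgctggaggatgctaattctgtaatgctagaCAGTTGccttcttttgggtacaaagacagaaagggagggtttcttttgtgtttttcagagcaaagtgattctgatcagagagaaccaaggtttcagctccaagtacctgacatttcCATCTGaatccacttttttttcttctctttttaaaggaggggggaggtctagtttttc
Otog, chr7:46240737-46240986, plus strand: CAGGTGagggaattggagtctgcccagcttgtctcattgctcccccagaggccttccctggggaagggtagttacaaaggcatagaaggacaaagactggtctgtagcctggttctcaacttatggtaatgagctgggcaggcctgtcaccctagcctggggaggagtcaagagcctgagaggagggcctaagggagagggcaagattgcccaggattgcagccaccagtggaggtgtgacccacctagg

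The Tectb window held 1 match to TGGGAA, read on the opposite strand and starting 136 bases before the start, and none to CAGNTG. The Otoa window held neither set of letters. That of Tecta held 2 matches to CAGNTG, 174 and 58 bases before the start, and that of Otog held 1, at its far end. Of the 32851 promoter windows of this length, 21.6% held TGGGAA and 44.8% held CAGNTG on either strand, so both are common in sequence of this length. A match is a description of the letters and not of a bound site. The RefSeq start of Otoa lies 1774 bases inside the first start of the GENCODE gene, and a second RefSeq start of Tecta lies 1761 bases upstream of the GENCODE start. Its window, not printed, held 1 match to CAGNTG.

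Tectb, Tecta, Otog, Otogl and Otoa were all expressed, while Ceacam16 was close to the limit of detection. Levels of different genes were compared as RPM per kilobase of exon (RPKM), over the union of exons in GENCODE. Tectb (ENSMUSG00000024979.13, chr19:55180733-55196313, plus strand), which encodes β-tectorin, had 3365 to 3559 RPKM in P0 CompE, 1696 to 2463 in P0 DMSO, 3198 to 3996 in P6 CompE and 3282 to 5219 in P6 DMSO. By reads it was the gene with the most reads of all genes in every P0 CompE library and every P6 library, and it ranked 2 or 3 in P0 DMSO. By RPKM it ranked between 2 and 4 in all 14 libraries, among 26705 genes with a known exon length.

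Tecta (ENSMUSG00000037705.13, chr9:42329619-42399929, minus strand), which encodes α-tectorin, followed with 156 to 547 RPKM over all 14 libraries. Otog (ENSMUSG00000009487.10, chr7:46240987-46311434, plus strand), encoding otogelin, had 24.1 to 147 RPKM. Otogl (ENSMUSG00000091455.4, chr10:107760531-107912134, minus strand), encoding otogelin-like, had 15.6 to 72.2 RPKM. The order Tectb, Tecta, Otog, Otogl held in each of the 14 libraries, although the ranges of Otog and Otogl overlapped across libraries within both treatments at P0. At P6 they did not overlap within either treatment, but came as close as 72.3 and 72.2 RPKM with CompE.

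The ratio of Otog to Otogl per kilobase was 1.11 to 2.20, and the ratio of Tectb to Tecta was 4.50 to 25.7. Otoa (ENSMUSG00000034990.15, chr7:121081650-121163097, plus strand) had 8.56 to 50.0 RPKM and lay below Otogl in 13 of 14 libraries. With the longest transcript (4347 bases) in place of the union of exons (8439 bases), Otoa lay below Otogl in only 8 of 14, so the order of these neighbours depends on the transcript assumed. Ceacam16 (ENSMUSG00000014686.8, chr7:19852097-19861299, minus strand) had 0 to 1.57 RPKM. The 6 genes together took 1.74% to 1.78% of all counted reads in P0 CompE, 0.894% to 1.49% in P0 DMSO, 1.49% to 1.93% in P6 CompE and 1.86% to 2.38% in P6 DMSO.

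**Figure D1:**
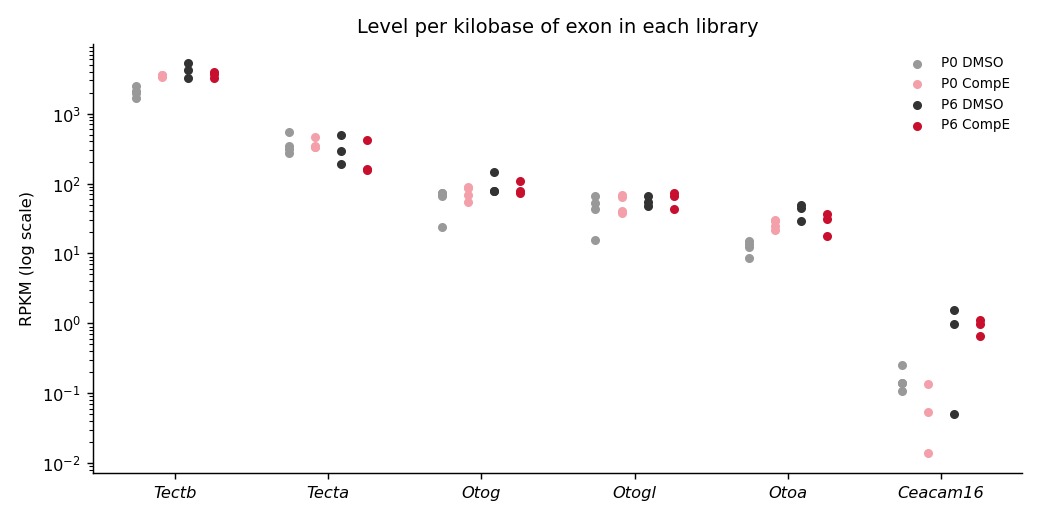
Level of each gene in RPKM on a log scale (y axis) against gene (x axis), with 1 point per library coloured by age and treatment; the P0 CompE library with 0 reads of Ceacam16 cannot be drawn on this axis. Tectb lies at 1696 to 5219 RPKM, above all other genes shown, and Ceacam16 lies at or below 1.57 RPKM.

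The first comparison asked how these genes differed at P0 between cells sorted after 24 hours with CompE and with DMSO. Tectb and Otoa were higher with CompE in all 4 pairs and without overlap between treatments, by 0.71 and 1.06 on the log2 scale. Tecta, which encodes the partner of β-tectorin in the striated sheet, did not move in one direction. Otog was slightly higher in all 4 pairs, Otogl in 2 of 4, and Ceacam16 had too few reads to pass the filter on low counts. In edgeR 0 of the 5 members tested were called, against 1.22% of all 15937 genes tested.

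In RPM, Tectb measured 12856, 13596, 13282 and 13541 in CompE pairs 1 to 4, and 6478, 9409, 8019 and 7558 in the DMSO libraries of the same pairs. The lowest CompE library lay above the highest DMSO library, and the CompE libraries were close together, with 13318 ± 338 RPM (SD, n = 4) against 7866 ± 1214 RPM (SD, n = 4). The ratio within a pair was 1.98, 1.45, 1.66 and 1.79 in pairs 1 to 4, so it was above 1 in each of the 3 batches. The log2 fold change was 0.71 ± 0.16 (SE) with an adjusted p of 0.0400 in edgeR. With the replicate number as a block it was 0.73 ± 0.11 (SE) with an adjusted p of 0.00693 in edgeR, below the threshold on p but still under 2-fold and therefore not called.

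Otoa measured 185, 246, 207 and 256 RPM with CompE in pairs 1 to 4, and 72.2, 126, 116 and 103 RPM with DMSO. The groups did not overlap, and the means were 224 ± 33.4 and 104 ± 23.2 RPM (SD, n = 4 each). Within pairs the ratio was 2.56, 1.96, 1.79 and 2.49, again above 1 in each batch. Its log2 fold change was 1.06 ± 0.21 (SE) with an adjusted p of 0.0212 in edgeR, above the threshold. With the replicate block it was 1.08 ± 0.12 (SE) with an adjusted p of 0.00120 in edgeR, and Otoa was then called, the only 1 of the 5 members tested, against 0.684% of all genes called higher in that fit. The call under the block was lost without pair 4 (log2 fold change 1.01, adjusted p = 0.0113) and held without each of the other pairs. Absence of overlap with CompE higher, as in Tectb and Otoa, was found in 5.13% of all genes tested.

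Tecta had 3469, 2490, 2513 and 2510 RPM with CompE in pairs 1 to 4, and 2005, 4057, 2280 and 2575 RPM with DMSO. The DMSO libraries lay on both sides of the CompE libraries, and the within-pair ratio ran from 0.614 in pair 2 to 1.73 in pair 1. The log2 fold change of −0.05 had a 95% interval of −0.56 to 0.47 (adjusted p = 0.969, edgeR). Since Tectb was higher and Tecta was not, the ratio of Tectb to Tecta reads was 3.71 to 5.46 with CompE and 2.32 to 3.52 with DMSO, without overlap.

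Otog had 561, 900, 921 and 711 RPM with CompE and 250, 749, 762 and 689 RPM with DMSO in pairs 1 to 4. CompE was higher in each pair, but the ratio was 2.25 in pair 1 and 1.20, 1.21 and 1.03 in the others, and the groups overlapped. Its log2 fold change was 0.29, with a 95% interval of −0.48 to 1.05 (adjusted p = 0.833, edgeR). Higher values with CompE in every pair, as in Tectb, Otoa and Otog, were found in 17.4% of all genes tested.

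Otogl had 327, 567, 592 and 355 RPM with CompE and 137, 573, 463 and 383 RPM with DMSO in pairs 1 to 4. The ratio was 2.39 in pair 1 and 0.927 to 1.28 in the others. The DMSO library of pair 1 was the lowest P0 DMSO library for Tectb, Tecta, Otoa, Otog and Otogl alike. Pair 1 also had the highest P0 ratio of each of these genes. The sums of the Notch target genes (3681 RPM) and of the SC markers (7127 RPM) were lowest in that library too. So were those of the tectorial membrane collagens (7952 RPM), the other inner ear matrix genes (644 RPM) and the mesenchyme markers (916 RPM). The Deiters' and pillar cell (2552 RPM) and inner phalangeal and border cell (710 RPM) sums were lowest there as well. Those of the hair cell, greater epithelial ridge, glia and neuron and macrophage markers were not. The log2 fold change of Otogl was 0.19, with a 95% interval of −0.71 to 1.09 (adjusted p = 0.919, edgeR).

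Ceacam16 had 1, 0, 3 and 7 reads with CompE and 6, 7, 13 and 7 reads with DMSO in pairs 1 to 4. That is 0.0827 ± 0.0993 RPM against 0.261 ± 0.104 RPM (SD, n = 4 each), and the 0 in pair 2 allows a level of up to 0.155 RPM by counting error. An exact two-sided permutation test of the means gave p = 0.0571, where the smallest p that 4 against 4 libraries allow is 0.0286. On the other strand Ceacam16 overlaps Gm19345, a gene with 4 to 24 reads per library at P0, and without knowledge of the strand setting the reads of the pair cannot be assigned with certainty.

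**Figure D2:**
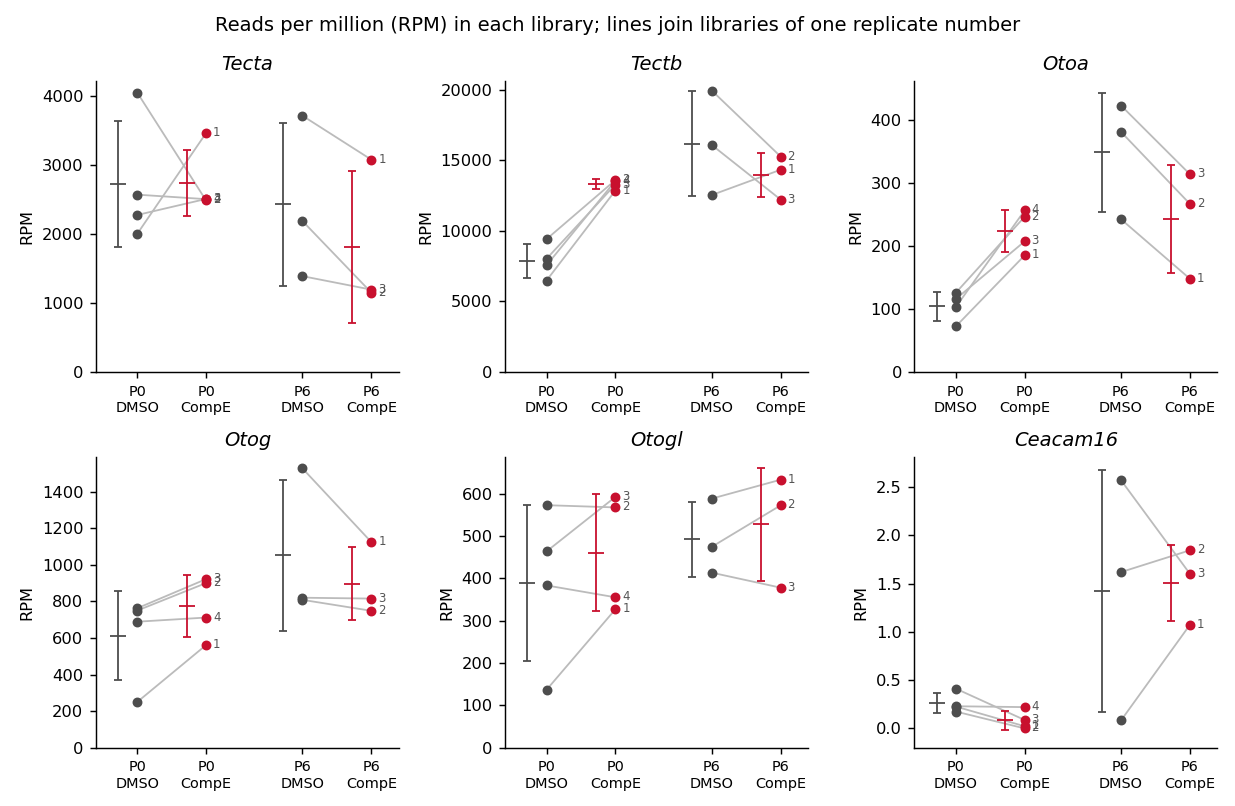
Level of each gene in RPM (y axis, linear) for DMSO and CompE at P0 and P6 (x axis). Each point is a library, grey lines join libraries of a pair, small numbers give the pair, and the bars beside the points are the mean and SD. The 4 P0 lines of Tectb and of Otoa all go up, and the 3 P6 lines of Otoa all go down.

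Markers of other cell types gave the following levels at P0. The 7 hair cell markers summed to 1218 to 1850 RPM with CompE and 620 to 1309 RPM with DMSO, with all 7 fold changes above 0 and 0 called (2 with the replicate block). The 6 mesenchyme markers summed to 1190 to 1342 RPM with CompE and 916 to 1090 RPM with DMSO, without overlap, although 5 of the 6 fold changes were below 0 and 0 were called with or without the block. Lum, which encodes the proteoglycan lumican, made up most of this sum and was the 1 member above 0, with 1051 ± 92.1 against 754 ± 70.0 RPM (SD, n = 4 each; log2 fold change 0.44, adjusted p = 0.109, edgeR). Dcn, encoding decorin, had 187 against 189 RPM, and Col1a1 at most 9.76 RPM. The 5 markers of the greater epithelial ridge summed to 243 to 413 RPM with CompE and 139 to 490 RPM with DMSO, which overlap, and 0 were called. The 8 SC markers summed to 6261 to 7612 RPM with CompE and 7127 to 12342 RPM with DMSO. Of these 0 were called without the block and 2 were called lower with it, the Notch ligand gene Jag1 (−1.29) and Lfng (−1.54), which is also in the Notch target list. The part of these shifts in the levels of Tectb and Otoa was not tested, and in bulk samples more cells of a type and more RNA per cell cannot be told apart. Cells were sorted for Lfng-EGFP after treatment, and Lfng itself had a mean of 912 RPM with CompE and 2791 RPM with DMSO. Whether the sort took the same cells under both treatments was not tested.

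At P6 the question was the same, and none of the genes passed the threshold with edgeR, with or without the replicate block. Of the 6 members tested 0 were called by edgeR, as were 0 of all 15322 genes, a share of 0%. At an unadjusted p under 0.05, 289 of the 15322 genes and 0 of the members passed, and DESeq2 called 13 of all genes and 0 of the members. With the replicate block 1108 genes had an unadjusted p under 0.05, among them 2 members, Otoa and Tecta, and 0 genes were called. In RPM, Tecta, Otoa and Otog were lower with CompE in all 3 pairs, which was the case in 17.1% of all genes tested. The ratio of Otog in pair 3 was 0.994, close to no difference.

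Tectb had 14327, 15264 and 12216 RPM with CompE and 12537, 19938 and 16081 RPM with DMSO in pairs 1 to 3. It was higher with CompE in pair 1 and lower in pairs 2 and 3, and the log2 fold change was −0.20, with a 95% interval of −0.76 to 0.35 (adjusted p = 1.00, edgeR). Otoa had 148, 266 and 313 RPM with CompE and 242, 381 and 422 RPM with DMSO. It was lower with CompE by a similar factor in each pair (ratios of 0.611, 0.700 and 0.742), but the groups overlapped, because pair 1 was low under both treatments.

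The log2 fold change of Otoa at P6 was −0.51 ± 0.32 (SE), with a 95% interval of −1.25 to 0.23 (adjusted p = 1.00, edgeR). Within pairs the interval was narrower, from −0.77 to −0.30, but the adjusted p of 0.373 with the replicate block in edgeR did not pass either. Tecta had 3083, 1153 and 1196 RPM with CompE and 3721, 2192 and 1392 RPM with DMSO. Pair 1 was high under both treatments, and the within-pair ratio was 0.829, 0.526 and 0.859. Its log2 fold change with the replicate block was −0.46, with a 95% interval of −0.83 to −0.08 (adjusted p = 0.639, edgeR).

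Otog had 1124, 748 and 815 RPM with CompE and 1526, 808 and 820 RPM with DMSO, and Otogl had 633, 572 and 378 RPM and 588, 474 and 413 RPM. The groups overlapped for both, with log2 fold changes of −0.22 (−0.91 to 0.47) and 0.12 (−0.47 to 0.70) and 95% intervals in parentheses. Ceacam16 had 27, 53 and 44 reads with CompE and 2, 45 and 106 reads with DMSO. The DMSO libraries spanned the CompE libraries, and Gm19345 on the other strand had 39 to 154 reads per library. Absence of overlap between treatments was found for 0 of the 6 members at P6, against 3.04% (CompE higher) and 4.14% (CompE lower) of all genes tested.

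**Figure D3:**
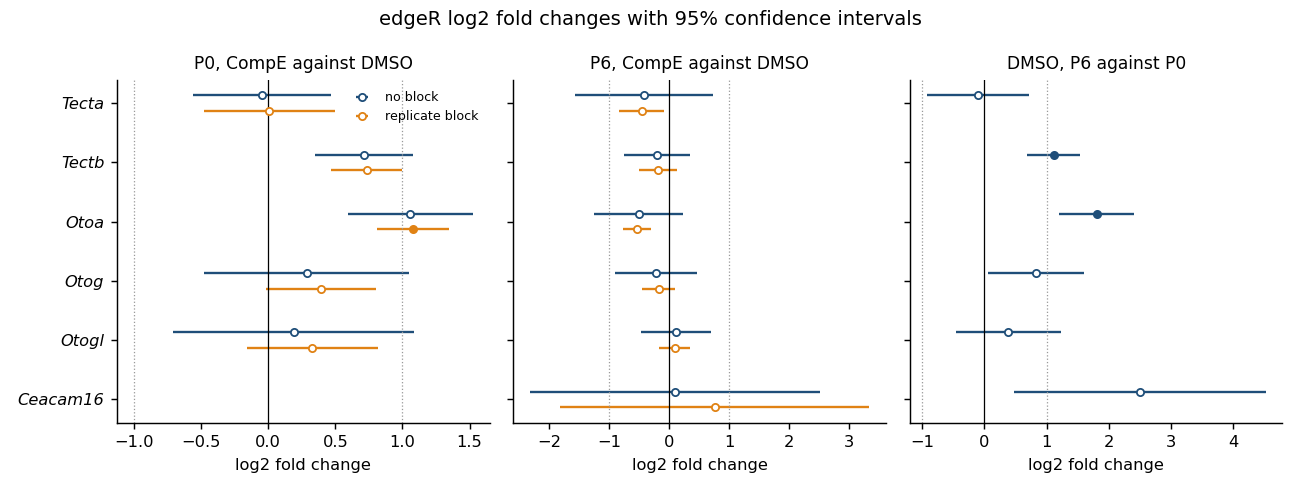
Log2 fold change with its 95% confidence interval (x axis) for each gene (y axis) in 3 comparisons, from edgeR without a block (blue). Fits with the replicate number as a block (orange) are shown for the treatment comparisons only, since the comparison of ages in DMSO had none. Filled points were called, and dotted lines mark 2-fold. Otoa is called at P0 with the block, at 1.08, and Tectb and Otoa are called between ages in DMSO, at 1.11 and 1.80.

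Whether the response to CompE differed between the ages was tested with an interaction term for age by treatment over all 14 libraries. For Otoa the response at P6 was lower than that at P0 by 1.56 on the log2 scale (log2 difference −1.56 ± 0.39 SE, unadjusted p = 0.00149, adjusted p = 0.444, edgeR), which was not called, as were 0 of all 17090 genes (0%). With the replicate block the difference was −1.61 ± 0.17 (SE) with an adjusted p of 0.00597 in edgeR, and Otoa was called, against 0.0527% of all genes called lower in that fit (9 of 17090). The P0 and P6 responses of Otoa had opposite signs in every pair, up in 4 of 4 at P0 and down in 3 of 3 at P6. The first was found in 17.4% of the genes tested at P0 and the second in 17.1% of those tested at P6. The share of all genes with both was not counted. The blocked call was lost in 6 of the 7 fits that left out 1 pair and kept without P0 pair 3. Over these 7 fits the adjusted p was 0.00865 to 0.0417 and the difference −1.71 to −1.53.

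For Tectb the difference was −0.91 ± 0.29 (SE), with an adjusted p of 0.723 without and 0.0875 with the replicate block in edgeR, and it was not called. Tecta, Otog and Otogl had interaction values of −0.36, −0.49 and −0.06, and 95% intervals that included 0. That of Ceacam16 was 1.72, with an interval of −1.17 to 4.61.

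The comparison of ages used the same libraries and so shares samples with the comparisons of treatment. In DMSO, Tectb and Otoa rose from P0 to P6, and these were 2 of 6 members called higher, against 3.74% of all 17090 genes. Tectb had 6478 to 9409 RPM at P0 and 12537 to 19938 RPM at P6, without overlap, a log2 change of 1.11 ± 0.20 (SE, adjusted p = 0.00160, edgeR). Otoa went from 72.2 to 126 RPM at P0 to 242 to 422 RPM at P6, also without overlap, a log2 change of 1.80 ± 0.28 (SE, adjusted p = 0.000569, edgeR). The call of Otoa held in every fit that left out a library or pair. That of Tectb was lost without the P6 DMSO library of pair 2 (log2 change 0.89, adjusted p = 0.0113), without P6 pair 2 (0.89, 0.0128), without P0 pair 4 (1.09, 0.0124) and without P0 pair 1, where the change of 1.00 was just under 2-fold.

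Otog lay at 250 to 762 RPM at P0 and 808 to 1526 RPM at P6 in DMSO, without overlap, but its change of 0.83 ± 0.36 (SE) was not called (adjusted p = 0.114, edgeR). Absence of overlap with P6 higher was found in 3 of 6 members and in 12.4% of all genes tested. The other otogelin, Otogl, changed by 0.39 (95% interval −0.46 to 1.24) and Tecta by −0.10 (−0.92 to 0.72). Ceacam16 changed by 2.50 (0.48 to 4.52), with an adjusted p of 0.0718 in edgeR, but the P6 DMSO library of pair 1 had 0.0834 RPM and lay below all 4 P0 DMSO libraries.

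In CompE, 0 of 6 members were called between the ages, against 6.43% of all genes. Tectb had 12856 to 13596 RPM at P0 and 12216 to 15264 RPM at P6, which overlap, and a log2 change of 0.20 (95% interval −0.23 to 0.64). For Otoa the ranges of 185 to 256 and 148 to 313 RPM overlapped too, with a change of 0.25 (−0.35 to 0.84). Ceacam16 lay at 0 to 0.221 RPM at P0 and 1.07 to 1.85 RPM at P6, without overlap, with a change of 4.22 ± 1.02 (SE) that missed the threshold (adjusted p = 0.0101, edgeR) and passed it in DESeq2 (adjusted p = 0.000138). Gm19345 on its other strand also had more reads at P6, with 4 to 6 per CompE library at P0 and 77 to 113 at P6. In DMSO it had 4 to 24 and 39 to 154 reads. The reads of Ceacam16 and Gm19345 cannot be assigned with certainty. Absence of overlap with P6 higher was found in 13.2% of all genes. In P6 libraries the mesenchyme list summed to 884 to 3976 RPM, against 916 to 1342 RPM at P0, and the Deiters' and pillar cell list to 427 to 1790 RPM, against 2552 to 3921 RPM. The greater epithelial ridge list summed to 333 to 1590 RPM at P6, against 139 to 490 RPM at P0. Its upper end came from pair 3, with 1590 RPM (CompE) and 1503 RPM (DMSO), while pairs 1 and 2 had 333 to 599 RPM. The mesenchyme list was also highest in pair 3, with 3256 RPM (CompE) and 3976 RPM (DMSO), against 1188 and 884 RPM in pair 1. The inner phalangeal and border cell list summed to 982 to 2117 RPM, against 710 to 1348 RPM. In DMSO, 4 of 5 ridge markers were higher at P6 and 1 was called lower. Of the 4 inner phalangeal and border cell markers, 1 was called higher and 1 lower. The part of these in the age differences was not tested.

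The collagens form the fibrils in the same membrane. Of 8 collagen genes 0 were called at P0 with or without the replicate block, with a median log2 fold change of −0.03 beside 0.01 over all genes, and Col9a3, a chain of type IX collagen, had the smallest adjusted p (0.39 ± 0.13 SE, adjusted p = 0.158, edgeR). Like Tectb and Otoa it had no overlap between treatments, with 795 to 922 RPM with CompE and 553 to 720 RPM with DMSO. With the block Col9a3 was at 0.40 (95% interval 0.15 to 0.66) and Col11a1, a chain of type XI collagen, at 0.40 (0.13 to 0.66). At P6 0 of 8 were called and 7 were below 0. Between the ages in DMSO 0 of 8 were called and all 8 were below 0, with a median of −0.50 beside −0.05 over all genes. Col2a1, which encodes the fibrillar type II collagen and had the most reads of the list, went from 5644 ± 723 RPM (SD, n = 4) to 4008 ± 776 RPM (SD, n = 3), a change of −0.43 that was not called (adjusted p = 0.0873, edgeR).

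Of the 6 other inner ear matrix and attachment genes, Emilin2, which encodes an elastin-associated matrix protein, was called at P0. It fell with CompE from 148 ± 6.58 to 75.9 ± 7.06 RPM (SD, n = 4 each), a decrease that lies at the 2-fold threshold (SE of 0.10 on the log2 scale, adjusted p = 0.000655, edgeR). The other 5 were not called and lay below 0, among them Otol1, an otolith protein (−0.33), and Strc, which encodes the stereocilin that attaches hair bundles to the membrane. Strc was at −0.19 without the replicate block and at 0.14 with it. At P6 0 of the 5 that were tested were called. Otol1 was called between the ages in CompE, where it rose by 2.03 on the log2 scale (adjusted p = 0.00148, edgeR), and Sparcl1, which encodes a matricellular protein, fell by 1.36 between the ages in DMSO (adjusted p = 0.00610, edgeR).

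**Figure D4:**
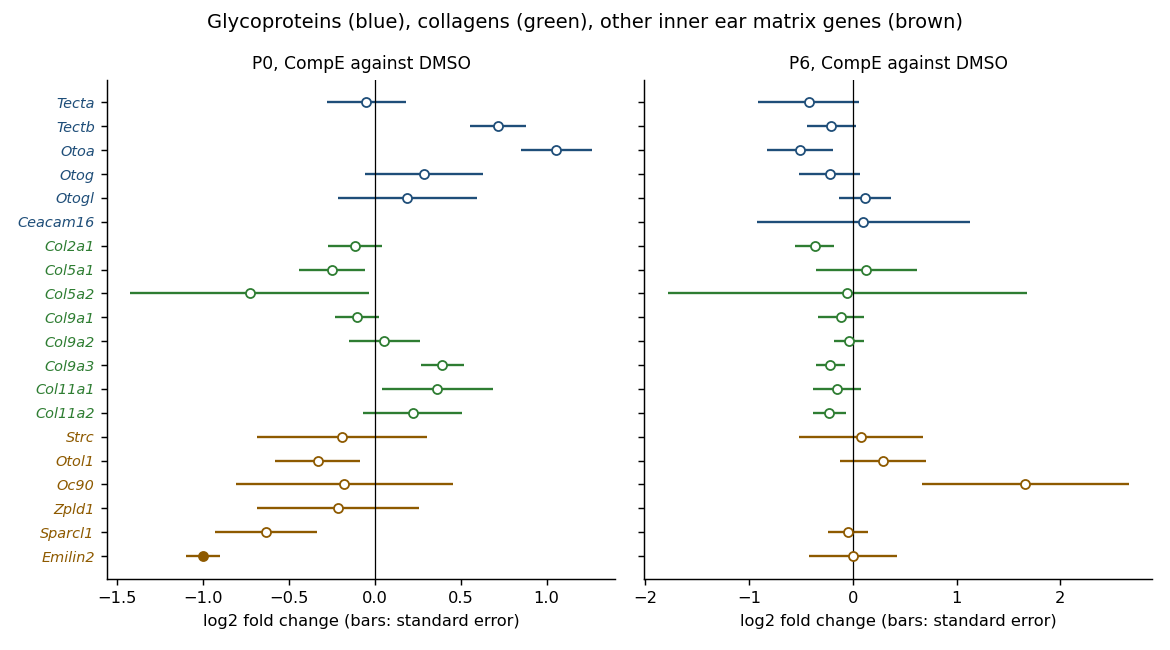
Log2 fold change of CompE against DMSO (x axis, bars are the SE) for the 6 glycoprotein and attachment genes (blue), 8 collagens (green) and 6 other inner ear matrix genes (brown) at P0 and P6, from edgeR without a block, with called genes filled. At P0 Tectb and Otoa lie at 0.71 and 1.06 and Emilin2, the filled point, lies below 0, while Ceacam16 at P0 and Zpld1 at P6 did not pass the filter on low counts.

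Across the 14 libraries, 2 pairs of members had the highest correlations of their levels. Otog and Otogl had a Pearson r of 0.91 for log2 CPM (TMM-scaled, prior count of 2), and an r of 0.91 for deviations from the group means. Tectb and Otoa had an r of 0.90 over all libraries and 0.58 for deviations from the group means. For deviations from the group means Tectb and Otogl had an r of 0.61, above that of Tectb and Otoa. Tecta had an r of −0.15 with Tectb, −0.36 with Otoa, 0.24 with Otog and 0.25 with Otogl over all libraries. For deviations from the group means these values were 0.13, −0.46, 0.56 and 0.49. The libraries share ages, treatments and batches, so these values describe the set and carry no test.

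Of all 17090 genes, the 3 whose levels were most like those of Tectb over the 14 libraries were Bspry (r = 0.949), Gpr179 (0.929) and Zfp651 (0.928). For Otoa they were Mfi2 (r = 0.936), Cpt1a (0.930) and Adamts17 (0.930). Those most like Tecta were Cnot6 (r = 0.907), Cdc27 (0.899) and Hsd11b2 (0.893). Otog was most like Kctd21 (r = 0.952), Fam120c (0.948) and Thada (0.945), and Otogl was most like Fam120c (0.958), Ept1 (0.952) and 1810013L24Rik (0.940), so that Fam120c stood in both lists. Ceacam16, at its low counts, was most like Gm32261 (r = 0.949), Cd34 (0.943) and Car3 (0.938).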

How the data were processed

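Bulk RNA-seq libraries were made from full-length amplified cDNA without molecular identifiers, so reads of a gene are not independent molecules, and intervals on single counts cover counting error only. The authors trimmed reads with Trim Galore 0.6.0 and Cutadapt 1.15, aligned them by STAR against GRCm38 (mm10) and deposited raw counts per gene symbol, neither normalized nor filtered. The submitters' processing notes name STAR 2.7.0f. The annotation release and strand setting are not given in the sources used here. Totals were 19415066 to 44430063 counts per library, and members other than Ceacam16 had at least 1909 counts in each library, so the spread between libraries set the precision.

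RPM was computed as counts over the library's total. Each age was fitted with edgeR 4.0.16 in R 4.3.3 (TMM, filterByExpr with min.count 10, then glmQLFit, glmQLFTest), with treatment as the only term. Interaction and age comparisons used all 14 libraries. Calls required a p adjusted over all genes tested (Benjamini-Hochberg) not above 0.01 and a change of 2-fold or more, and the SE is the absolute log2 fold change over the square root of F. Ceacam16 at P0, which failed the filter, was compared with an exact permutation test of RPM. The labels give replicates no animal of their own, so p-values measure the spread between libraries. Replicate numbers mark shared batches in the labels, and deviations from group means correlated between the libraries of a pair by 0.144 to 0.456 at P0 and 0.251 to 0.605 at P6, so the block was taken as a pairing.

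Alternatives were DESeq2 1.42.0, DESeq2's size factors, no filter, calls at an adjusted p of 0.05 whatever the fold, replicate and batch blocks, all libraries in one fit, other RPM denominators and transcript lengths, and leaving out each library or pair. The members and lists were chosen with earlier results of these data known. All members are named, and of other lists the genes that were called or lead their list, plus 3 like genes per member. Col9a3, Strc and the further genes of the matrix lists given by value, Sox2 and Col1a1 were chosen after their values were seen. Of the statistical steps, only the edgeR fit of treatment within an age, without a block, was tested on simulated data. The fits with a block, the interaction, the age comparisons, DESeq2 and the permutation test were not tested in this way.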

Additional observations from a re-analysis of the deposited data

Results flagged for a closer look

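Of 12 groups of 4 P0 libraries examined (6 genes in 2 treatments), 2 held a library that stood far from the others by Dixon's criterion, where chance gives about 1 in 20, or 0.6 of 12. Tecta had 3469 RPM in the CompE library of pair 1, against 2490 to 2513 RPM in the other 3. Otog had 250 RPM in the DMSO library of pair 1, against 689 to 762 RPM in the others. Groups of 3 libraries at P6 were not examined.

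The response of Otoa to CompE differed between the ages when the replicate number was a block, with a log2 difference of −1.61 (P6 minus P0, adjusted p = 0.00597, edgeR), up in 4 of 4 pairs at P0 and down in 3 of 3 at P6. Without the block the difference was −1.56 and was not called (adjusted p = 0.444, edgeR). In RPM, Otog was also up in 4 of 4 pairs at P0 and down in 3 of 3 at P6, but its difference of −0.56 with the block did not pass the test (adjusted p = 0.517, edgeR). Its ratio was only 1.03 in P0 pair 4 and 0.994 in P6 pair 3. The TMM factors of the P6 pair 3 libraries were 0.994 (CompE) and 1.001 (DMSO), so the direction in that pair depends on the denominator. Opposite directions in every pair were themselves a rule for this flag, and the share of all genes with them was not counted.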

How the results depend on the processing

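Of the 624 planned refits of a member's log2 fold change, 599 kept the sign, 4 lost a call and 9 gained one, and the cause was not tested. At P0, 0 members were called without a block, 1 (Otoa) with the replicate block (log2 fold change 1.08), the batch block or DESeq2, and 2 (Tectb and Otoa) at an adjusted p of 0.05 whatever the fold. Tecta changed sign there, to 0.0087 under the replicate and 0.0077 under the batch block. In the interaction 1 member was called with the replicate or batch block and 0 with DESeq2, and between the ages in CompE 1 (Ceacam16) with DESeq2 or at an adjusted p of 0.05. The block changed no call at P6. No paired analysis was possible between ages because no pair held both.

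Of all genes at P0, 195 were called, 350 with the replicate block, 334 with the batch block, 117 with all 14 libraries in one fit, 443 with DESeq2 and 617 if 0.05 was the threshold whatever the fold. At P6 DESeq2 called 13, and edgeR 0. The interaction had 0 without a block, 16 with the replicate block, 15 with the batch block, 1 with no filter, 33 with DESeq2 and 2 if 0.05 was the threshold. Between the ages DESeq2 called 1993 in DMSO (edgeR 1216) and 1854 in CompE (edgeR 1099), and an adjusted p of 0.05 gave 3840 and 3759.

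Leaving out 1 library or pair gave 0 to 1 members and 1 to 225 genes called at P0, with 1 gene left without pair 4. It gave 0 to 2 genes in the interaction, 1 to 2 members and 667 to 1281 genes between ages in DMSO, and 0 to 1 members and 548 to 1295 genes in CompE. With the block kept, a choice made after seeing the data, it gave 0 to 1 members at P0 and in the interaction. Sign changes, all of uncalled values, came in Tecta (−0.28 to 0.25) and Otogl (−0.10 to 0.45) at P0, in Tecta (−1.04 to 0.0078), Tectb (−0.37 to 0.010), Otog (−0.41 to 0.15), Otogl (−0.020 to 0.33) and Ceacam16 (−0.45 to 0.78) at P6, in Tecta (−0.97 to 0.061) and Otogl (−0.32 to 0.24) in the interaction, and in Tecta (−0.53 to 0.21) between ages in DMSO. The difference of Ceacam16 at P0 stayed between −0.225 and −0.128 RPM (main −0.179).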
